A study of Homo sapiens with 16 samples.

Results

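Genes of the lysosome and of autophagy, 44 in all, were followed after knockdown of YES1 in 2 human breast cancer cell lines. Their rows, 44 of 58735 in the count tables, were found by gene symbol. They comprise 26 lysosomal proteins, 16 autophagy factors and the transcription factors TFEB and TFE3. The series measured polyadenylated RNA in MDA-MB-231 and SUM159PT, both established lines from triple-negative breast cancer, each labelled wild type. Cells were lipid-transfected with an siRNA against YES1 (siYES1), a tyrosine kinase of the Src family, or with one against firefly luciferase (siNS), which has no target in human cells, and both groups are labelled 48 h. Each line had 4 siYES1 and 4 siNS libraries, 16 in all. The design text calls them technical replicates, so the p-values measure only the spread between such samples.

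Lysosomes are acidic organelles that break down proteins, sugars and lipids. A proton pump, the V-ATPase, acidifies them, heavily glycosylated membrane proteins line them, and hydrolases do the cutting. Autophagy encloses cytoplasm in a double membrane, built by initiation factors and by a conjugation system that attaches ATG8 proteins such as LC3 to lipid, and delivers it to lysosomes with the help of cargo receptors. TFEB and TFE3 are related transcription factors that switch on many genes of both systems when they move into the nucleus, a step that phosphorylation by mTORC1 holds back, so their own transcript levels do not measure their activity.

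Libraries held 15863961 to 21158617 counts in MDA-MB-231 and 15680459 to 23451253 in SUM159PT. Values below are in CPM, a gene's counts relative to the total of its library, with totals scaled by TMM within a line. YES1 itself stood at 13.8 ± 0.820 CPM with siYES1 and 63.2 ± 6.16 with siNS in MDA-MB-231, and at 17.2 ± 1.80 with siYES1 and 134 ± 23.8 with siNS in SUM159PT (SD, n = 4 each), which fits the labels. The control library SUM159PT siNS replicate 1 stood apart: it lay at 47.6 on the second principal component, the other siNS libraries lay between -32.9 and -11.1, and it was the lowest siNS library for 30 of the 44 genes. Most fold changes and counts that use it are therefore also given without it. The MDA-MB-231 siNS libraries also split on the second component of that line. Replicates 1 and 2 lay at 14.4 and 20.9, and replicates 3 and 4 at -17.1 and -18.6. Of these siNS libraries, replicate 1 was the lowest for 22 of the 44 genes. Count columns of the SUM159PT libraries are headed S149, so the line's name rests on titles and labels, and its identity was not tested. The 3 mesenchymal markers VIM, CD44 and AXL summed to 3008 to 3059 CPM with siYES1 and 2408 to 2445 with siNS in MDA-MB-231, and to 3629 to 3721 with siYES1 and 2078 to 2707 with siNS in SUM159PT. The groups overlapped for CD44 in MDA-MB-231 and for AXL in SUM159PT. The 4 epithelial markers CDH1, EPCAM, KRT8 and KRT18 summed to 1540.1 to 1612 CPM with siYES1 and 1067 to 1425 with siNS in MDA-MB-231, and to 232 to 246 with siYES1 and 413 to 487 with siNS in SUM159PT. KRT8 and KRT18 made up most of those sums. In MDA-MB-231 KRT8 was 1116 to 1145 CPM with siYES1 and 729 to 954 with siNS, and the groups overlapped for KRT18. EPCAM went the other way there, at 10.7 to 14.0 CPM with siYES1 and 20.2 to 28.8 with siNS. In SUM159PT KRT8 and KRT18 were both lower with siYES1. CDH1, the epithelial cadherin, was at most 1.17 CPM in any library. Of the receptors by which such lines are classed, PGR was at most 0.118 CPM and ESR1 at most 1.34 in any library. ERBB2 transcript was present in both lines, at 102 to 113 CPM with siYES1 and 111 to 126 with siNS in MDA-MB-231. In SUM159PT ERBB2 was 57.8 to 67.9 CPM with siYES1 and 46.9 to 79.9 with siNS. The 5 leukocyte markers, a check because lysosomal genes are high in macrophages, summed to 7.64 to 11.4 CPM with siYES1 and 18.7 to 23.6 with siNS in MDA-MB-231, and to 0.909 to 2.06 with siYES1 and 4.97 to 6.82 with siNS in SUM159PT. All 5 had a count except in the SUM159PT siYES1 libraries, where 2 did, and PTPRC was at most 0.917 CPM anywhere. CSF1R and CD14 were higher, at 9.94 to 13.2 and 7.25 to 9.62 CPM with siNS in MDA-MB-231. With siYES1 they were there at 4.83 to 7.25 and 1.46 to 2.48. LYZ went the other way in MDA-MB-231, at 0.992 to 1.81 CPM with siYES1 and 0.159 to 0.730 with siNS. The part of these markers in the results was not tested.

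The lysosomal and autophagy genes did not move as a block in either line. The lysosomal membrane proteins LAMP1 and LAMP2 rose in both lines, the autophagy factors WIPI1, ULK1, NBR1 and ATG7 and the transcription factor TFEB fell in MDA-MB-231, and WIPI1, SQSTM1, TFE3 and the protease CTSB rose in SUM159PT. A gene was called at an adjusted p under 0.05 in edgeR's quasi-likelihood test over all genes, and all 44 were tested in each line. In MDA-MB-231, 13 were called higher and 12 lower with siYES1, and 19 were not called. Of all 14319 genes tested there 52.4% were called, 24.9% higher and 27.5% lower, so these shares are near the background. In SUM159PT, 21 were called higher and 5 lower, and 18 were not called, where 36.8% of all 14469 genes were called, 17.7% higher and 19.0% lower. The 44 genes had a median log2 fold change (siYES1 over siNS) of -0.05 in MDA-MB-231, beside 0.002 for all genes tested, and of 0.26 in SUM159PT, beside -0.029. Without SUM159PT siNS replicate 1, 24 were higher and 5 lower in SUM159PT, with a median of 0.23, and the share of all genes called was 42.4% in that fit, 21.0% higher and 21.5% lower.

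Across both lines, 9 of the 44 genes were called higher in each and 3 were called lower in each. Another 4, CTSB, TFE3, WIPI1 and OPTN, were called lower in MDA-MB-231 and higher in SUM159PT. The matching shares over all genes were not counted, so these joint counts have no background to be read against. Line by line, 52.4% of all genes tested were called in MDA-MB-231 and 36.8% in SUM159PT. In bulk RNA, a change in how many cells carry a transcript and a change per cell cannot be told apart. For 24 genes of MDA-MB-231 the ranges of the siYES1 and siNS libraries were apart, 12 with siYES1 above and 12 with siYES1 below, where 47.1% of all genes tested were free of overlap. In SUM159PT 26 genes were free of overlap, 20 with siYES1 above and 6 below, beside 36.8% of all genes. Without siNS replicate 1 it was 28, 22 above and 6 below, beside 45.4% of all genes. Together the 44 genes took 0.855 ± 0.0140% of all counts with siYES1 and 0.850 ± 0.0297% with siNS in MDA-MB-231. In SUM159PT they took 1.01 ± 0.0209% with siYES1 and 0.797 ± 0.0728% with siNS (SD, n = 4 each), or 0.831 ± 0.0338% over the 3 siNS libraries other than replicate 1.

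**Figure D1:**
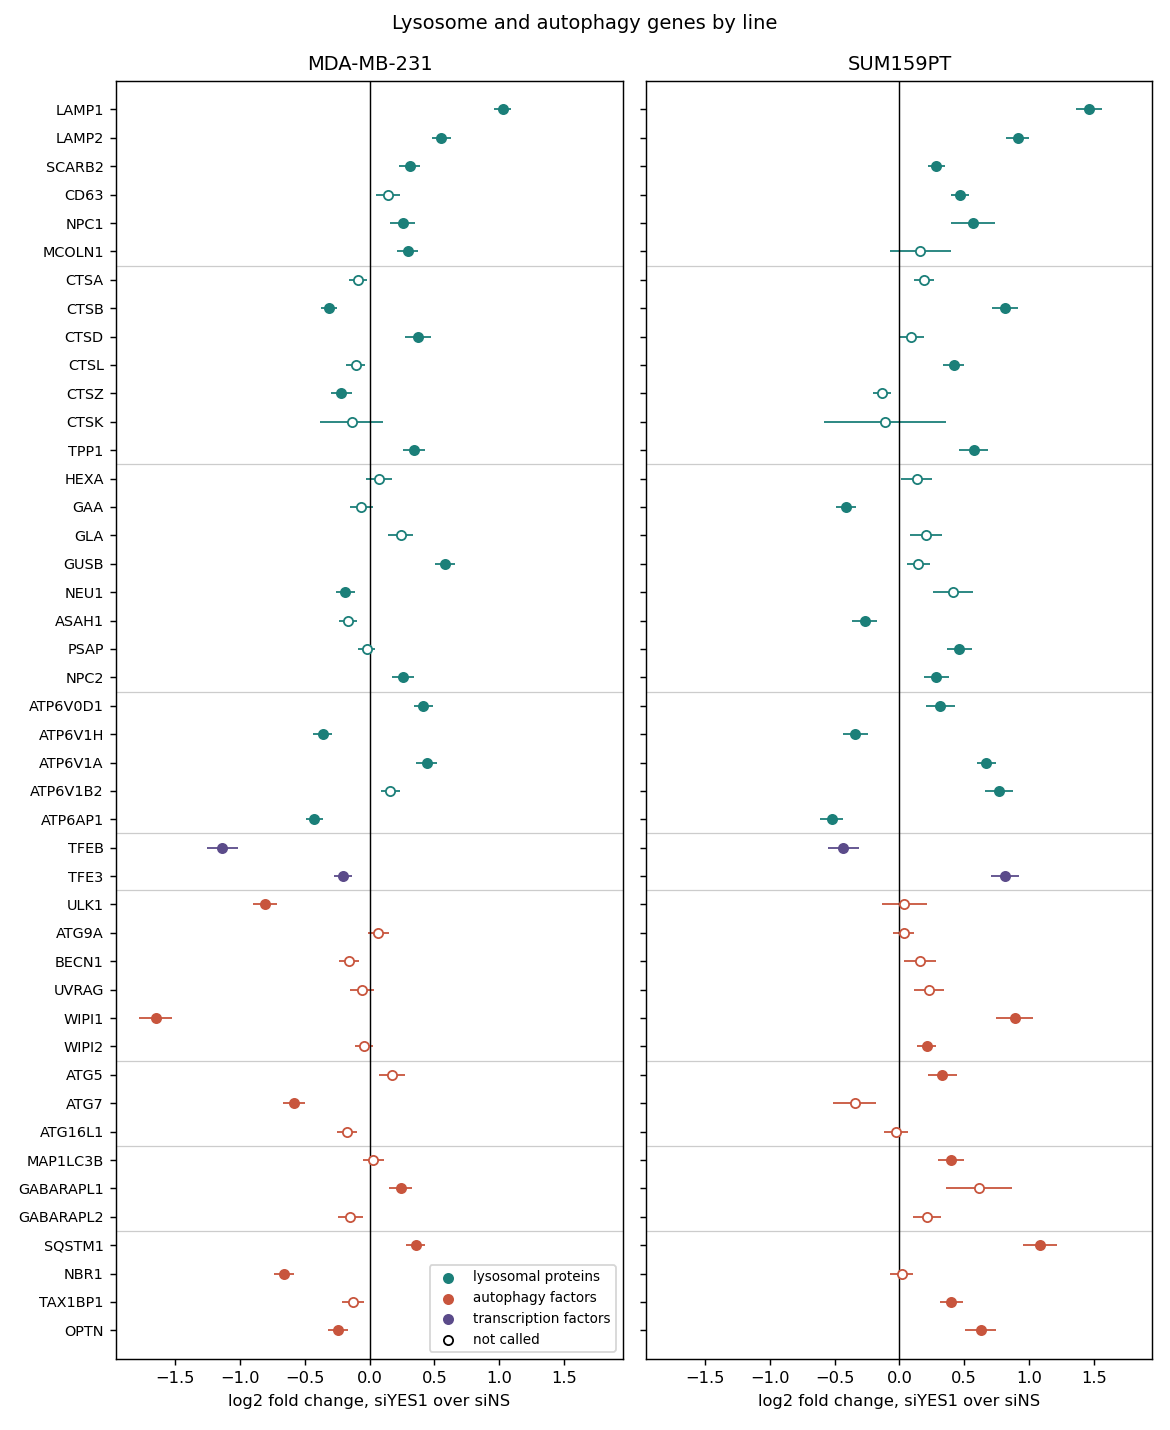
Log2 fold change of each of the 44 genes, siYES1 over siNS, in MDA-MB-231 (left) and SUM159PT (right), grouped by role. Points are estimates of the edgeR fit, bars are ± 1 SE, filled points are called at an adjusted p under 0.05, and LAMP1 lies furthest right in both lines, at 1.03 and 1.46.

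TFEB and TFE3 are known to bind E-boxes, in particular a form flanked by T that recurs in promoters of lysosomal genes. RefSeq promoter windows (GRCh38.p14, from 250 bases before to 50 after the start) were held for 34 of the 44 genes: 17 of the lysosomal proteins, 15 of the autophagy factors and both transcription factors. They were searched on both strands for CACGTG and for TCACGTG, which contains it. Some genes have several windows, and a gene was counted once if any of its windows held the word. The shorter word was found for 8 of the 17 lysosomal genes (47.1%), against 8.8% of all 27305 genes with a window. The longer word was found for 7 of them (41.2%), against 4.5% of all genes. Neither word was found for the 15 autophagy genes, in 22 windows, or for TFEB and TFE3, in 4 windows. Outside the 44, the shorter word was found for 7 of 27 other lysosomal genes (25.9%), 2 of 10 other pump subunits, 4 of 28 other autophagy factors (14.3%) and 7 of 21 genes that control TFEB or mTORC1 (33.3%), so the absence from the 15 autophagy genes does not extend to other autophagy factors. A match describes letters only, and no match says only that the letters are not in this window.

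The stretches below show these words in the genes whose responses are described next, 5′ to 3′ on the strand of the gene, with the word in capitals. LAMP1 held the shorter word at 6 positions, each within the longer word on at least one strand, of which 2 are shown, one far from the start and one near it. CTSD holds the reverse complement of the longer word, and CD63, in 1 of its 8 windows, the shorter word alone.
LAMP1, chr13:113297034-113297063, plus strand: gaccaggccgggTCACGTGggtccagggtc
LAMP1, chr13:113297198-113297227, plus strand: agacccgcgggaTCACGTGacgcccgggcg
MCOLN1, chr19:7522570-7522599, plus strand: gaccagaggcggTCACGTGaggggctctgg
CTSA, chr20:45891280-45891309, plus strand: ggaggaagactgTCACGTGgcgccggagtt
CTSD, chr11:1763957-1763986, minus strand: gccggccgcgccCACGTGAccggtccgggt
GAA, chr17:80101492-80101521, plus strand: cgggaggccgcgTCACGTGacccaccgcgg
NEU1, chr6:31862931-31862960, minus strand: gatgctgcgtgaTCACGTGggaggagatga
ATP6V0D1, chr16:67481200-67481229, minus strand: gcccccttatggTCACGTGaggcgcttgcg
CD63, chr12:55729172-55729201, minus strand: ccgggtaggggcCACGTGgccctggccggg

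**Figure D2:**
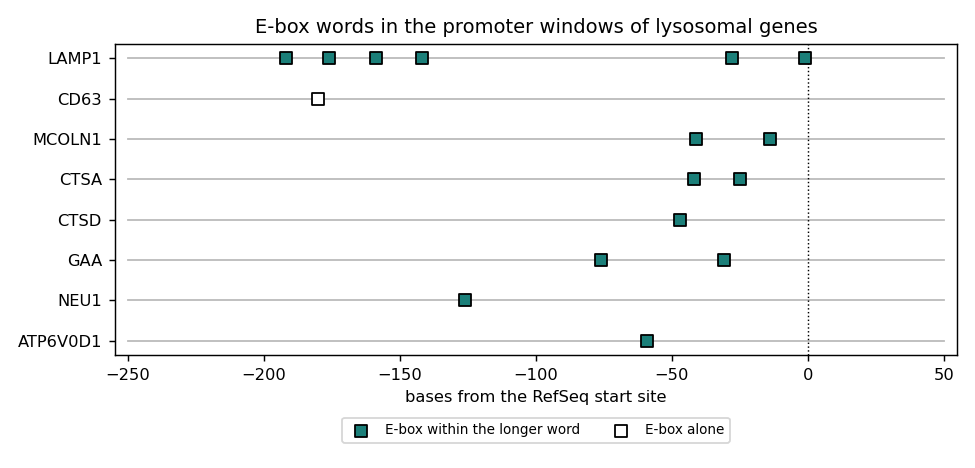
Positions of the E-box word in the promoter windows of the 8 lysosomal genes that hold it, in bases from the RefSeq start site. Filled squares lie within the longer word and the open square does not. LAMP1 has 6 squares, from -192 to -1, and the other genes have 1 or 2 each.

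Genes that hold the longer word did not share a direction. With siYES1, LAMP1 and ATP6V0D1 were called higher in both lines, MCOLN1 and CTSD were called higher in MDA-MB-231 alone, NEU1 was called lower in MDA-MB-231, GAA was called lower in SUM159PT, and CTSA was called in neither line. CTSA, a carboxypeptidase that also protects NEU1, was at -0.09 in MDA-MB-231 and 0.19 in SUM159PT. Its difference between lines was called at 0.38 (edgeR adjusted p = 0.00720) and was lost with total counts (0.16, adjusted p = 0.209). Without SUM159PT siNS replicate 1 CTSA was at 0.14 in SUM159PT, with a difference of 0.27.

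Membrane proteins were the lysosomal group with the most members higher. Of these, 5 of 6 rose in MDA-MB-231 (median log2 fold change 0.30) and 5 of 6 rose in SUM159PT (0.52, or 0.41 without siNS replicate 1). All 6 were above 0 in both, except that MCOLN1 was at -0.01 in SUM159PT with total counts as the scaling. LAMP1, a sugar-coated protein that lines the lysosome, lies on chromosome 13 at 113297241 to 113323672 (ENSG00000185896, GRCh38). In MDA-MB-231 it had 421, 439, 422 and 424 CPM with siYES1, against 199, 212, 220.4 and 207 with siNS. In SUM159PT LAMP1 had 419, 393, 395 and 427 CPM with siYES1, against 181, 128, 134 and 151 with siNS. The groups were far apart in both lines, and siNS replicate 1 of SUM159PT was here the highest of its group. The log2 fold change was 1.03 ± 0.07 in MDA-MB-231 (SE; edgeR adjusted p = 2.53e-09) and 1.46 ± 0.10 in SUM159PT (edgeR adjusted p = 4.94e-07), or 1.56 without siNS replicate 1. The effect was larger in SUM159PT by 0.53 ± 0.12 (edgeR adjusted p of the difference = 0.00227), or by 0.58 without that library, a call lost with total counts as the scaling (0.31, adjusted p = 0.0928).

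LAMP2, the other main coat protein, which also takes part in chaperone-mediated autophagy, followed LAMP1. In MDA-MB-231 it had 260.1, 276, 288 and 274 CPM with siYES1, against 206, 187, 186 and 169 with siNS. In SUM159PT LAMP2 had 314, 298, 302 and 299 CPM with siYES1, against 134, 186, 167 and 159 with siNS. Every siYES1 library was above every siNS library of its line. The log2 fold change was 0.55 ± 0.07 in MDA-MB-231 (edgeR adjusted p = 9.25e-06) and 0.91 ± 0.09 in SUM159PT (edgeR adjusted p = 9.02e-06), or 0.82 without siNS replicate 1, a difference of 0.45 (edgeR adjusted p = 0.00863) that was 0.31 without SUM159PT siNS replicate 1 and lost its call with total counts as the scaling (0.24, adjusted p = 0.122). SCARB2, which carries glucocerebrosidase to the lysosome, rose by 0.31 log2 units in MDA-MB-231 and 0.28 in SUM159PT (edgeR adjusted p = 0.00416 and 0.00481). The SUM159PT value of SCARB2 was 0.24 without siNS replicate 1, and its call was lost with total counts (0.11, adjusted p = 0.131). NPC1, the membrane exporter of cholesterol, rose by 0.26 in MDA-MB-231 and 0.57 in SUM159PT (edgeR adjusted p = 0.0368 and 0.0187). The SUM159PT value of NPC1 was 0.37 without siNS replicate 1, and its call was lost with total counts (0.41, adjusted p = 0.0549). The MDA-MB-231 call of NPC1 was lost without siNS replicate 2 or siYES1 replicate 1 or 2 (0.16 to 0.24, adjusted p = 0.0925 to 0.112), with total counts (0.21, adjusted p = 0.0955) and in the joint fit of all 16 libraries (0.20, adjusted p = 0.335). CD63, a tetraspanin of late endosomes, rose in SUM159PT by 0.47 and was at 0.14 without a call in MDA-MB-231 (edgeR adjusted p = 0.000183 and 0.207), with a called difference of 0.42 (edgeR adjusted p = 0.0140) that was lost with total counts (0.20, adjusted p = 0.220). CD63 was at 0.46 in SUM159PT without siNS replicate 1, with a difference of 0.35.

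MCOLN1, the lysosomal calcium channel, differed in level between the lines. In MDA-MB-231 it had 54.1, 52.4, 49.7 and 48.4 CPM with siYES1, against 37.9, 39.9, 43.9 and 45.2 with siNS, groups that did not overlap. It rose there by 0.29 ± 0.08 on the log2 scale (edgeR adjusted p = 0.00660), or 0.24 with adjusted p = 0.224 in a joint fit of all 16 libraries. In SUM159PT MCOLN1 had 5.51, 6.41, 9.95 and 9.34 CPM with siYES1, against 7.73, 4.85, 8.21 and 7.07 with siNS, and the groups overlapped (log2 fold change 0.16, edgeR adjusted p = 0.624, or 0.20 without siNS replicate 1). The effects did not differ detectably between lines (difference -0.04, 95% interval -0.48 to 0.41), an interval that also holds differences as large as the MDA-MB-231 effect.

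The 7 proteases split. In MDA-MB-231, CTSD and TPP1 rose, CTSB and CTSZ fell, and 3 were not called. In SUM159PT, CTSB, CTSL and TPP1 rose and 4 were not called. CTSB, a cysteine cathepsin (ENSG00000164733, chromosome 8 at 11842524 to 11869448), had 441, 466, 450.1 and 439.8 CPM with siYES1 in MDA-MB-231, against 535, 566, 564 and 569 with siNS. In SUM159PT CTSB had 1179, 1226, 1127 and 1142 CPM with siYES1, against 511, 768, 694 and 686 with siNS. The siYES1 libraries were thus all below siNS in one line and all above it in the other. The log2 fold change was -0.31 ± 0.06 in MDA-MB-231 (edgeR adjusted p = 0.000600) and 0.81 ± 0.10 in SUM159PT (edgeR adjusted p = 5.84e-05), or 0.70 without siNS replicate 1, a difference of 1.22 ± 0.12 (edgeR adjusted p = 3.49e-07) that was 1.05 without SUM159PT siNS replicate 1.

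CTSD, the main aspartyl protease, had 1098, 1186, 1215 and 1200.2 CPM with siYES1 in MDA-MB-231, against 705, 904, 982 and 1036 with siNS, and rose by 0.37 ± 0.10 (edgeR adjusted p = 0.00407). In SUM159PT CTSD had 629.6, 633, 592 and 614 CPM with siYES1, against 456, 639, 618 and 604 with siNS. These groups overlapped, and its log2 fold change was 0.09 (edgeR adjusted p = 0.488). Without siNS replicate 1 it was -0.02, and the difference between lines, -0.19 with all libraries (edgeR adjusted p = 0.383), was then called at -0.35 (adjusted p = 0.0287). CTSL, another cysteine cathepsin, rose by 0.42 in SUM159PT (edgeR adjusted p = 0.00126) and was at -0.11 in MDA-MB-231, a called difference of 0.62. CTSL was at 0.39 in SUM159PT without siNS replicate 1, with a difference of 0.54. TPP1, a tripeptidyl peptidase, rose by 0.35 in MDA-MB-231 and 0.57 in SUM159PT (edgeR adjusted p = 0.00310 and 0.00145), the second being 0.46 without siNS replicate 1. CTSZ, a carboxypeptidase, fell by 0.22 in MDA-MB-231 (edgeR adjusted p = 0.0321), a call lost without any 1 of 6 libraries, siNS replicates 3 and 4 and all 4 siYES1 replicates (adjusted p = 0.0586 to 0.102). CTSK was low, at 1.97 CPM with siYES1 and 2.17 with siNS in MDA-MB-231 and at 1.42 with siYES1 and 1.54 with siNS in SUM159PT, and was called in neither. CTSD shares 41.7% of its exon sequence with AC068580.4 on its own strand, which was at most 1.08 CPM in any group mean. It shares 15.8% with AC068580.3 on the other strand, at most 7.75 CPM in any group mean.

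Of the 8 glycosidases and lipid proteins, GUSB and NPC2 rose and NEU1 fell in MDA-MB-231, while PSAP and NPC2 rose and GAA and ASAH1 fell in SUM159PT. HEXA, of the hexosaminidases, and GLA, an alpha-galactosidase, were called in neither line. GLA was near the threshold in MDA-MB-231 (0.24, edgeR adjusted p = 0.0506). It was called there with RLE scaling, with no filter on low counts, by DESeq2 and by limma-voom (0.25 each, adjusted p = 0.0361 to 0.0479). GLA was also called there without siNS replicate 1 (0.28, adjusted p = 0.0347) or siNS replicate 2 (0.29, adjusted p = 0.0223), and in SUM159PT without siNS replicate 1 (0.33, adjusted p = 0.0105). GUSB, beta-glucuronidase, had 99.6, 103, 99.7 and 105 CPM with siYES1 in MDA-MB-231, against 60.6, 72.0, 69.3 and 69.9 with siNS, a rise of 0.58 ± 0.07 (edgeR adjusted p = 6.63e-06). In SUM159PT GUSB had 55.8, 58.8, 54.1 and 55.7 CPM with siYES1, against 49.7, 45.8, 57.7 and 49.9 with siNS, and was not called (0.14, edgeR adjusted p = 0.235, or 0.12 without siNS replicate 1). It was the only one of the 44 called lower in the interaction test, SUM159PT minus MDA-MB-231, at -0.34 (edgeR adjusted p = 0.0350), or -0.42 without SUM159PT siNS replicate 1. That call was lost without any 1 of 10 libraries, namely MDA-MB-231 siNS replicates 1 and 3, the 4 MDA-MB-231 siYES1 replicates, SUM159PT siNS replicate 3 and SUM159PT siYES1 replicates 1, 3 and 4 (adjusted p = 0.0519 to 0.0927).

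PSAP, the precursor of the saposins that help degrade sphingolipids, had 1485, 1571, 1573 and 1503 CPM with siYES1 in MDA-MB-231, against 1447, 1559.8, 1597 and 1619.6 with siNS, and these overlapping groups gave no call. In SUM159PT PSAP had 2281, 2295, 2154 and 2153 CPM with siYES1, against 1257, 1851, 1684 and 1658 with siNS, so the lowest siYES1 library stood above the highest siNS library. It rose there by 0.46 ± 0.10 (edgeR adjusted p = 0.00246), or 0.35 without siNS replicate 1, and the lines differed by 0.58 (edgeR adjusted p = 0.00136), or by 0.41 without that library. NPC2, which hands cholesterol to NPC1, rose by 0.26 in MDA-MB-231 and 0.28 in SUM159PT (edgeR adjusted p = 0.0181 and 0.0360), the second being 0.21 without siNS replicate 1. The call of NPC2 was lost in MDA-MB-231 without siYES1 replicate 3 (adjusted p = 0.0503) and in SUM159PT without siNS replicate 3 or 4 or any siYES1 replicate (adjusted p = 0.05 to 0.110), and with total counts (0.12, adjusted p = 0.313). GAA, the acid glucosidase that clears glycogen, fell by 0.41 in SUM159PT (edgeR adjusted p = 0.00104), or by 0.46 without siNS replicate 1, and was at -0.06 in MDA-MB-231. Its difference between lines, -0.25 (edgeR adjusted p = 0.141), was called lower without SUM159PT siNS replicate 1 (-0.35, adjusted p = 0.023), with total counts (-0.47, adjusted p = 0.00543) and with scaling factors set within each line (-0.35, adjusted p = 0.0378). NEU1, a sialidase, fell by 0.19 in MDA-MB-231 (edgeR adjusted p = 0.0375) and was at 0.41 in SUM159PT (edgeR adjusted p = 0.0516), with a difference of 0.70 (edgeR adjusted p = 0.00623), or 0.49 without SUM159PT siNS replicate 1. Its MDA-MB-231 call was lost without siNS replicate 2 or 4 or any siYES1 replicate (adjusted p = 0.0585 to 0.111), while its SUM159PT value was called without siNS replicate 1 (0.27, adjusted p = 0.0398), without siNS replicate 2 (0.57, adjusted p = 0.00660) or without siYES1 replicate 3 (0.49, adjusted p = 0.0453). With no library left out, NEU1 was called in SUM159PT by DESeq2 (0.42, adjusted p = 0.0346) and by limma-voom (0.44, adjusted p = 0.034). A replicate block, no filter on low counts and the joint fit also gave that call, so 8 of 16 alternatives did. Total counts did not (0.25, adjusted p = 0.184). ASAH1, acid ceramidase, fell by 0.27 in SUM159PT (edgeR adjusted p = 0.0421), or by 0.32 without siNS replicate 1, a call lost without siNS replicate 2, 3 or 4 or siYES1 replicate 1, 3 or 4 (adjusted p = 0.0740 to 0.142). In MDA-MB-231 ASAH1 was at -0.16 without a call (edgeR adjusted p = 0.0595), with all siYES1 libraries below siNS. It was called lower there without siNS replicate 1 (-0.17, adjusted p = 0.0341), with total counts (-0.21, adjusted p = 0.0186) and in the joint fit (-0.22, adjusted p = 0.0441). The difference between lines was -0.01 (95% interval -0.24 to 0.23).

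The 5 proton pump genes moved in opposite directions, and 4 of the 5 did so alike in both lines. ATP6V1A, the catalytic subunit of the pump's cytosolic domain, had 79.2, 81.8, 74.7 and 72.7 CPM with siYES1 in MDA-MB-231, against 63.3, 53.1, 56.4 and 54.1 with siNS. In SUM159PT ATP6V1A had 135, 137, 121 and 125 CPM with siYES1, against 81.2, 83.5, 80.7 and 80.5 with siNS. Neither line had overlapping groups, and the log2 fold changes were 0.44 and 0.67 (edgeR adjusted p = 0.000206 and 1.72e-05), the second being 0.66 without siNS replicate 1. ATP6AP1, an accessory protein of the pump, had 194, 207, 195 and 193 CPM with siYES1 in MDA-MB-231, against 254, 269, 261 and 274 with siNS. In SUM159PT ATP6AP1 had 81.5, 96.7, 82.8 and 94.9 CPM with siYES1, against 115, 140.3, 128 and 128 with siNS. It fell by 0.43 in MDA-MB-231 and 0.52 in SUM159PT (edgeR adjusted p = 4.09e-05 and 0.000516), the second being -0.58 without siNS replicate 1, and the difference between lines had a 95% interval of -0.22 to 0.22.

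ATP6V0D1, of the membrane domain, rose by 0.42 in MDA-MB-231 and 0.32 in SUM159PT (edgeR adjusted p = 0.000152 and 0.0429). The SUM159PT value of ATP6V0D1 was 0.42 without siNS replicate 1, and its call was lost without siNS replicate 3 or 4 or any siYES1 replicate (adjusted p = 0.0565 to 0.127) and with total counts as the scaling (0.14, adjusted p = 0.393). ATP6V1H, a regulatory subunit, fell by 0.36 in MDA-MB-231 and 0.34 in SUM159PT (edgeR adjusted p = 0.000444 and 0.0134), the second being -0.36 without siNS replicate 1. ATP6V1B2, the other main subunit of the cytosolic ring, had 184, 177, 169 and 162 CPM with siYES1 in SUM159PT, against 78.1, 119.9, 106 and 103 with siNS, and rose by 0.77 ± 0.11 (edgeR adjusted p = 0.000167). Without siNS replicate 1 that rise was 0.65. In MDA-MB-231 ATP6V1B2 had 97.8, 110.2, 104 and 99.5 CPM with siYES1, against 87.6, 90.0, 89.7 and 100.3 with siNS, overlapping groups. It was at 0.16 there and not called (edgeR adjusted p = 0.0791), but called without siNS replicate 4 (0.21, adjusted p = 0.0328). The lines differed in ATP6V1B2 by 0.70 (edgeR adjusted p = 0.000818), or by 0.53 without SUM159PT siNS replicate 1. For ATP6V1A the called difference of 0.32 (edgeR adjusted p = 0.0363) was lost without MDA-MB-231 siNS replicate 1, MDA-MB-231 siYES1 replicate 1, 3 or 4, SUM159PT siNS replicate 1, 3 or 4, or SUM159PT siYES1 replicate 1 or 2 (adjusted p = 0.0513 to 0.0917), and with total counts (0.10, adjusted p = 0.535).

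The transcripts of both transcription factors moved, and not together. TFEB (ENSG00000112561, chromosome 6 at 41683978 to 41736259) had 13.4, 11.4, 10.4 and 12.9 CPM with siYES1 in MDA-MB-231, against 21.5, 24.7, 29.7 and 29.9 with siNS. In SUM159PT TFEB had 22.1, 20.1, 19.6 and 19.4 CPM with siYES1, against 23, 32.7, 26.3 and 27.5 with siNS. All siYES1 libraries were below all siNS libraries in both lines, narrowly in SUM159PT. TFEB fell by 1.13 ± 0.12 log2 units in MDA-MB-231 (edgeR adjusted p = 9.46e-07) and by 0.43 ± 0.12 in SUM159PT (edgeR adjusted p = 0.0149), or 0.51 without siNS replicate 1, and the fall was smaller in SUM159PT by 0.80 ± 0.18 (edgeR adjusted p = 0.00285), or by 0.66 without siNS replicate 1 of SUM159PT.

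TFE3 (ENSG00000068323, chromosome X at 49028726 to 49043486) had 148.9, 146, 136 and 150.2 CPM with siYES1 in MDA-MB-231, against 162, 178, 159 and 169 with siNS. In SUM159PT TFE3 had 211, 204, 197 and 197 CPM with siYES1, against 87.6, 132, 117 and 123 with siNS. The siYES1 libraries were below siNS in MDA-MB-231 and well above it in SUM159PT. TFE3 fell by 0.20 ± 0.07 in MDA-MB-231 (edgeR adjusted p = 0.0220), a call lost without siYES1 replicate 2 (-0.20, adjusted p = 0.0575), without siYES1 replicate 3 (-0.17, adjusted p = 0.0954) and when lowly counted genes were kept in (-0.19, adjusted p = 0.0813). It rose by 0.82 ± 0.11 in SUM159PT (edgeR adjusted p = 8.46e-05), or 0.70 without siNS replicate 1. The difference between lines was 1.11 ± 0.13 (edgeR adjusted p = 2.53e-06), or 0.94 without that library.

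Among the 6 initiation and nucleation factors, WIPI1 and ULK1 fell in MDA-MB-231 and WIPI1 and WIPI2 rose in SUM159PT. WIPI1, which binds the phosphoinositide of the forming membrane (ENSG00000070540, chromosome 17 at 68420948 to 68457513), had 18.1, 14.9, 14.3 and 19.3 CPM with siYES1 in MDA-MB-231, against 59.3, 58.4, 41.3 and 49.4 with siNS. In SUM159PT WIPI1 had 113, 120.4, 116 and 116 CPM with siYES1, against 41.9, 73.5, 62.6 and 73.4 with siNS. The lines thus had similar siNS levels and siYES1 levels far apart, in opposite directions. The log2 fold change was -1.65 ± 0.12 in MDA-MB-231 (edgeR adjusted p = 1.74e-08) and 0.89 ± 0.14 in SUM159PT (edgeR adjusted p = 0.000355), or 0.73 without siNS replicate 1. The difference of 2.63 ± 0.21 (edgeR adjusted p = 1.21e-08) was the largest of the 44, and was 2.42 without SUM159PT siNS replicate 1. WIPI1 shares 28.1% of its exon sequence with genes on the other strand, and the strand setting of the counting is not given in the sources used here. Its antisense neighbour ARSG, a lysosomal sulfatase, had 1.38 CPM with siYES1 and 2.73 with siNS in MDA-MB-231, and 5.25 with siYES1 and 10.8 with siNS in SUM159PT, so it was lower with siYES1 in both lines.

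ULK1, the kinase that starts autophagy and a target of mTORC1, had 51.1, 50.2, 43.0 and 41.7 CPM with siYES1 in MDA-MB-231, against 75.7, 75.5, 80.4 and 93.4 with siNS, and fell by 0.80 ± 0.09 (edgeR adjusted p = 2.22e-06). In SUM159PT ULK1 had 105, 113, 96.9 and 111 CPM with siYES1, against 61.2, 128, 113 and 114 with siNS. There siNS replicate 1 was low and the other siNS libraries were at or above the top of the siYES1 range, 113.4 CPM, apart from replicate 3 just below it at 112.7. The log2 fold change was 0.04 (edgeR adjusted p = 0.883), or -0.15 without that library (adjusted p = 0.0862). The lines differed by 0.94 ± 0.21 (edgeR adjusted p = 0.00240), or by 0.69 without it. WIPI2, which recruits the conjugation machinery, rose by 0.21 in SUM159PT (edgeR adjusted p = 0.0403), or 0.17 without siNS replicate 1, a call lost without siNS replicate 3 or 4 or siYES1 replicate 1, 2 or 4 (adjusted p = 0.0549 to 0.117) and with total counts (0.04, adjusted p = 0.672). Its difference between lines of 0.35 (edgeR adjusted p = 0.0147) was not called without SUM159PT siNS replicate 1 (0.25, adjusted p = 0.0556). BECN1 and UVRAG, of the lipid kinase complex, and ATG9A, the lipid scramblase, were called in neither line, though UVRAG was called higher in SUM159PT without siNS replicate 2 (0.32, adjusted p = 0.0417). UVRAG was also called there in the joint fit of all 16 libraries (0.27, adjusted p = 0.0455). With total counts BECN1 was called lower in MDA-MB-231 (-0.21, adjusted p = 0.0298). ATG9A shares 38.8% of its exon sequence with AC068946.2 on its own strand, at most 0.225 CPM in any group mean. BECN1 shares 17.1% with genes on the other strand, among them PSME3. PSME3 was called higher in MDA-MB-231 (0.30, edgeR adjusted p = 0.000983), at 317 CPM with siYES1 and 258 with siNS. It was not called in SUM159PT (-0.14, edgeR adjusted p = 0.584). For BECN1 the difference between lines was 0.41 (edgeR adjusted p = 0.0401), or 0.43 without SUM159PT siNS replicate 1, a call lost without any 1 of 10 libraries, namely MDA-MB-231 siNS replicates 2 and 4, MDA-MB-231 siYES1 replicates 1, 2 and 3, SUM159PT siNS replicates 2 and 4 and SUM159PT siYES1 replicates 1, 2 and 3 (adjusted p = 0.0546 to 0.0847).

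In the conjugation system, ATG7, its E1-like enzyme, had 28.6, 26.4, 25.3 and 25.4 CPM with siYES1 in MDA-MB-231, against 37.2, 43.1, 38.0 and 40.0 with siNS. It fell by 0.58 ± 0.08 (edgeR adjusted p = 2.25e-05). In SUM159PT ATG7 had 21.5, 16, 17.6 and 22.3 CPM with siYES1, against 31.7, 19.9, 26.3 and 20.6 with siNS, and these overlapping groups gave -0.35 without a call (edgeR adjusted p = 0.121), or -0.21 without siNS replicate 1, a value called with total counts as the scaling (-0.52, adjusted p = 0.0343). ATG7 shares 18.1% of its exon sequence with genes on the other strand, chiefly VGLL4, which was not called in either line. ATG5, which ATG7 helps join to ATG12, rose by 0.33 in SUM159PT (edgeR adjusted p = 0.0373), or 0.32 without siNS replicate 1, and lost that call without siNS replicate 3 or 4 or any siYES1 replicate (adjusted p = 0.0634 to 0.108) and with total counts (0.16, adjusted p = 0.285). ATG16L1, which places the conjugation complex on the membrane, was called in neither line, but was called lower in MDA-MB-231 without siYES1 replicate 2 (-0.23, adjusted p = 0.0468). The same call came with total counts (-0.22, adjusted p = 0.0282) and in the joint fit of all 16 libraries (-0.23, adjusted p = 0.0477).

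Of the 3 ATG8 proteins, MAP1LC3B, whose product LC3B marks autophagosomes, had 104, 101, 113 and 115 CPM with siYES1 in MDA-MB-231, against 109.8, 115, 96.0 and 104 with siNS. These groups overlapped fully (log2 fold change 0.03, 95% interval -0.12 to 0.18). In SUM159PT MAP1LC3B had 184, 186, 179 and 176 CPM with siYES1, against 110.2, 159, 148 and 135 with siNS, and rose by 0.40 ± 0.10 (edgeR adjusted p = 0.00733), or by 0.29 without siNS replicate 1. The rise was 0.23 with total counts (adjusted p = 0.0504). The lines differed in MAP1LC3B by 0.46 (edgeR adjusted p = 0.0137), or 0.30 without SUM159PT siNS replicate 1, a call lost with total counts (0.25, adjusted p = 0.140) and with scaling factors set within each line (0.36, adjusted p = 0.0529). The near-identical MAP1LC3B2 had 4.10 CPM with siYES1 and 3.16 with siNS in SUM159PT, and reads shared between the copies could have gone to either. GABARAPL1 rose by 0.24 in MDA-MB-231 (edgeR adjusted p = 0.0286), a call lost without siNS replicate 2 or siYES1 replicate 2, 3 or 4 (adjusted p = 0.0630 to 0.0846). In SUM159PT GABARAPL1 averaged 44.5 ± 5.74 CPM with siYES1 and 29.1 ± 11.8 with siNS and missed the threshold (0.61, edgeR adjusted p = 0.0759). Leaving out a library brought a call, without siNS replicate 1 (0.35, adjusted p = 0.0156) or without siNS replicate 2 (0.79, adjusted p = 0.0305). So did limma-voom (0.72, adjusted p = 0.0427), no filter on low counts and the joint fit, making 5 of 16 alternatives. GABARAPL2 was called in neither line, but was called higher in SUM159PT without siNS replicate 2 (0.30, adjusted p = 0.0333). Its difference between lines of 0.46 (edgeR adjusted p = 0.0340) was lost without MDA-MB-231 siNS replicate 2, MDA-MB-231 siYES1 replicate 1, 2 or 4, SUM159PT siNS replicate 1 or 4, or SUM159PT siYES1 replicate 1 or 2 (adjusted p = 0.0552 to 0.103).

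The 4 cargo receptors, proteins that tie ubiquitin-marked cargo to ATG8 proteins, all responded more positively in SUM159PT. SQSTM1, or p62, which is itself degraded by autophagy (ENSG00000161011, chromosome 5 at 179806398 to 179838078), had 414, 427, 438 and 417 CPM with siYES1 in MDA-MB-231, against 302, 338, 317 and 368 with siNS. In SUM159PT SQSTM1 had 1645, 1628, 1477 and 1452 CPM with siYES1, against 508, 889, 775 and 755 with siNS. No siYES1 library overlapped the siNS range of its line. The rise was 0.36 ± 0.07 in MDA-MB-231 (edgeR adjusted p = 0.000612) and 1.08 ± 0.13 in SUM159PT (edgeR adjusted p = 4.27e-05), or 0.94 without siNS replicate 1. The difference was 0.82 ± 0.16 (edgeR adjusted p = 0.000652), or 0.62 without that library. SQSTM1 shares 22.0% of its exon sequence with genes on the other strand, of which MGAT4B was not called in either line. Another, MRNIP, was called higher in SUM159PT (0.48, edgeR adjusted p = 0.00559), at 21.4 CPM with siYES1 and 15.4 with siNS, and was at 0.02 without a call in MDA-MB-231.

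NBR1, a receptor related to SQSTM1 in domain layout, had 135, 133, 127 and 133 CPM with siYES1 in MDA-MB-231, against 234, 221, 191 and 191 with siNS, and fell by 0.66 ± 0.08 (edgeR adjusted p = 2.59e-06). In SUM159PT NBR1 had 166, 162, 168 and 171 CPM with siYES1, against 136, 166, 177 and 180.1 with siNS, and was not called (0.02, edgeR adjusted p = 0.895, or -0.07 without siNS replicate 1). OPTN, a receptor for damaged mitochondria and bacteria, had 205, 201, 211 and 207 CPM with siYES1 in MDA-MB-231, against 245, 283, 223 and 224 with siNS. In SUM159PT OPTN had 187, 184, 187 and 182 CPM with siYES1, against 89.1, 144, 129 and 118 with siNS. OPTN fell by 0.24 in MDA-MB-231 (edgeR adjusted p = 0.0174), a call lost without siYES1 replicate 2 (-0.23, adjusted p = 0.0564), and rose by 0.63 in SUM159PT (edgeR adjusted p = 0.00106), or 0.50 without siNS replicate 1. TAX1BP1, a further receptor, rose by 0.40 in SUM159PT (edgeR adjusted p = 0.00328), or 0.32 without siNS replicate 1, and was at -0.13 in MDA-MB-231 (edgeR adjusted p = 0.205). The differences between lines were 0.97 for OPTN, 0.78 for NBR1 and 0.63 for TAX1BP1 (edgeR adjusted p = 5.96e-05, 8.36e-05 and 0.00104), and 0.78, 0.63 and 0.49 without SUM159PT siNS replicate 1.

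**Figure D3:**
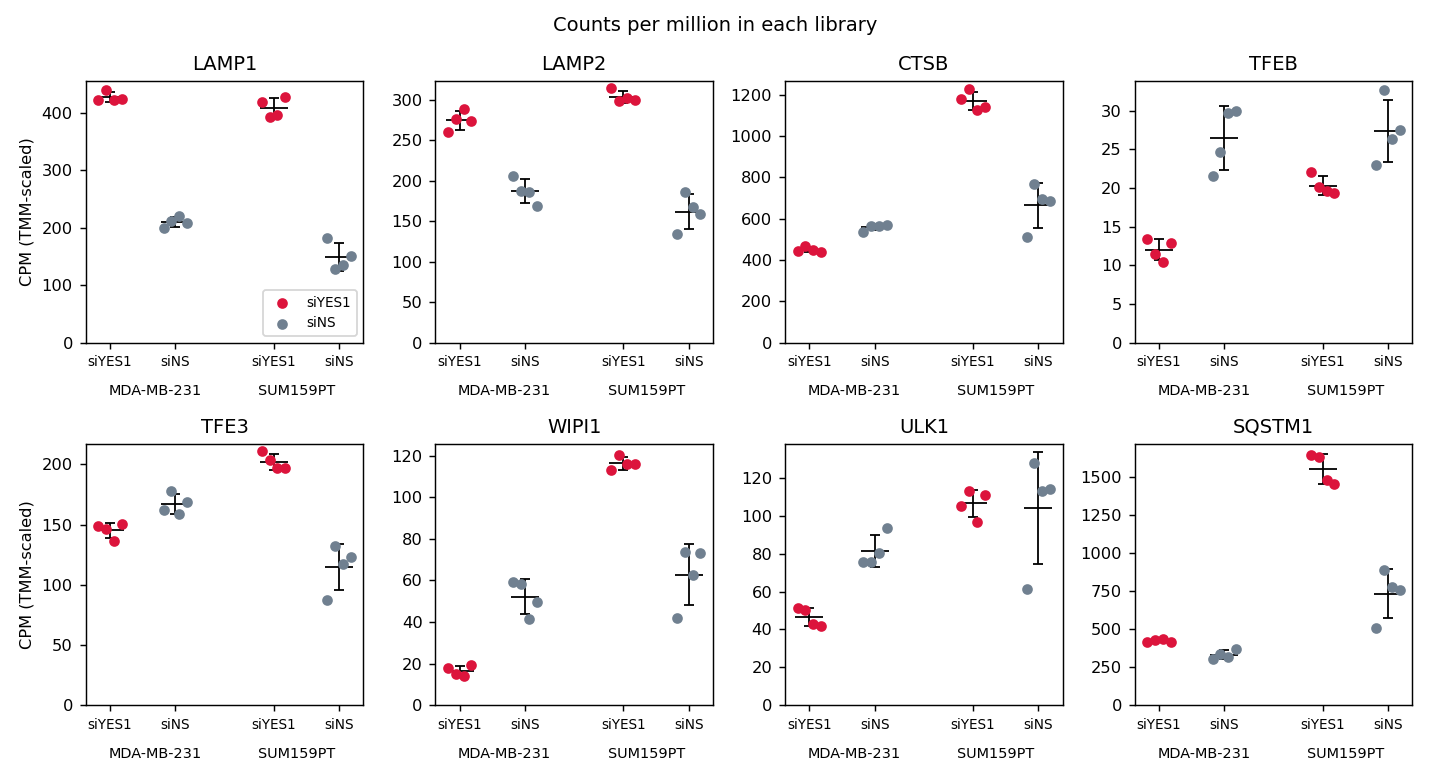
CPM of 8 genes in each of the 16 libraries, with siYES1 left of siNS in each line. Dots are libraries, bars are the mean ± SD (n = 4). LAMP1, LAMP2 and SQSTM1 lie higher with siYES1 in both lines, TFEB lower in both, and CTSB, TFE3 and WIPI1 lower in MDA-MB-231 and higher in SUM159PT.

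Set beside each other, the medians of the lysosomal proteins and of the autophagy factors lay on either side of 0 in MDA-MB-231 and both above 0 in SUM159PT. In MDA-MB-231, 11 of the 26 lysosomal proteins were called higher and 5 lower (median 0.15), against 2 of the 16 autophagy factors higher and 5 lower (median -0.14). Of all genes tested in that line, 24.9% were higher and 27.5% lower. In SUM159PT, 13 lysosomal proteins were called higher and 4 lower (median 0.28), and 7 autophagy factors were called higher (median 0.22). Of all genes tested in SUM159PT, 17.7% were higher and 19.0% lower. No autophagy factor was called lower there by edgeR, by DESeq2 or by limma-voom, and 0 were lower at an unadjusted p under 0.05, although ATG7 was called lower with total counts as the scaling. Without SUM159PT siNS replicate 1 the counts were 15 higher and 4 lower for lysosomal proteins (median 0.25) and 8 higher for autophagy factors (median 0.20). In that fit 21.0% of all genes were higher and 21.5% lower. These counts describe the lists, which were not compared by a test. The positive lysosomal median in MDA-MB-231 did not extend to 40 other tested hydrolases and membrane proteins (median -0.30, 8 higher and 22 lower). That was below the median of 34 other autophagy factors there (-0.09), while 12 other pump subunits were at 0.12. In SUM159PT the medians were -0.02 for other hydrolases and membrane proteins, 0.12 for other autophagy factors and 0.20 for other pump subunits.

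The difference between lines was tested for each gene as an interaction term, line by siRNA, in 1 model of the 16 libraries. Its value can depart from the gap between the per-line values, because libraries are then scaled together. It was called for 23 of the 44 genes, 22 more positive in SUM159PT and 1 more negative, where 24.3% of all 16299 genes were called, 15.4% more positive and 8.85% more negative. The median difference was 0.38, beside 0.03 for all genes. Of the 16 autophagy factors, 10 were called more positive in SUM159PT (median 0.46) and all 16 values were above 0, although with total counts ATG9A was at -0.16. Of the 26 lysosomal proteins 10 were called more positive and 1 more negative (median 0.17). Both transcription factors were called more positive. WIPI1, CTSB, TFE3, OPTN, ULK1 and SQSTM1 had the largest called differences, each of them also called with total counts as the scaling and without SUM159PT siNS replicate 1.

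With total counts as the scaling, the median difference of all genes moved by -0.22 and the calls fell to 13 more positive and 3 more negative, with the lysosomal median at -0.05 and the autophagy median at 0.24. Relative to the median of all genes, the 44 genes stood at 0.35 under both scalings. A change of scaling shifts all genes by nearly the same amount, so this value could hardly change and says nothing about the calls. Of all called genes 63.5% were more positive in SUM159PT in the fit reported here, 33.0% with total counts and 49.0% with scaling factors set within each line. That last scaling moved the median difference of all genes by -0.1. The median was then 0.28 for the 44 genes, 0.06 for lysosomal proteins and 0.36 for autophagy factors. The calls of CD63, ATP6V1A, BECN1, WIPI2, MAP1LC3B and GABARAPL2 were lost, while GAA was called more negative. Without SUM159PT siNS replicate 1, 19 of the 44 genes were more positive and 3 more negative, with a median of 0.26. In that fit 23.8% of all genes were called, 13.3% more positive and 10.5% more negative. Of the lysosomal proteins 9 were then more positive and 3 more negative (median 0.13), and of the autophagy factors 8 were more positive (median 0.36).

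**Figure D4:**
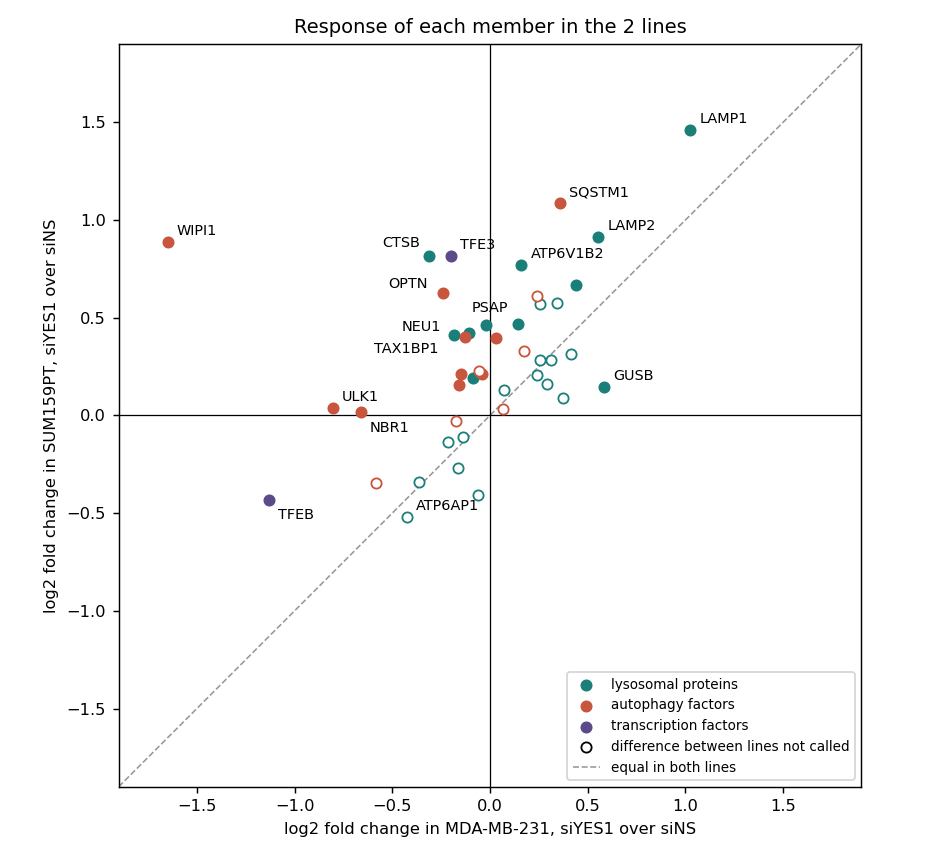
Log2 fold change (siYES1 over siNS) of each gene in MDA-MB-231 (x axis) and SUM159PT (y axis). Filled points are called for the difference between lines, the dashed line marks equal effects, and WIPI1 lies furthest from it, at -1.65 in MDA-MB-231 and 0.89 in SUM159PT.

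Levels can be compared between genes per kilobase of exon (RPKM, with the length of all exons of GENCODE 29, which understates genes with long alternative exons). PSAP was highest in all groups, at 473 ± 14.1 RPKM with siYES1 and 480.3 ± 23.6 with siNS in MDA-MB-231, and 686 ± 24.0 with siYES1 and 498 ± 77.9 with siNS in SUM159PT (SD, n = 4 each), or 534 ± 32.3 over the 3 siNS libraries other than replicate 1. CTSK was lowest in all groups, between 0.754 and 1.15 RPKM. SQSTM1 ranked 3 of the 44 in SUM159PT with siYES1, at 203 ± 13.1 RPKM, and 5 with siNS, at 95.6 ± 20.9, or 105 ± 9.46 and again 5 without siNS replicate 1. In MDA-MB-231 WIPI1 ranked 40 with siYES1, at 4.89 RPKM, and 22 with siNS, at 15.3.

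Other genes of the same systems, in lists that were not compared with the 44 by a test, are read beside the shares of all genes given above. Of 40 tested hydrolases and membrane proteins outside the 44, 8 were called higher and 22 lower in MDA-MB-231 (median -0.30), where 24.9% of all genes were higher and 27.5% lower. In SUM159PT 8 were higher and 10 lower (median -0.02), where 17.7% of all genes were higher and 19.0% lower. Without siNS replicate 1 of SUM159PT 41 could be tested there, 10 higher and 12 lower. FUCA1, the fucosidase, fell in both lines, to 52.9 ± 1.81 CPM with siYES1, against 135 ± 11.7 with siNS, in MDA-MB-231 (log2 fold change -1.35, edgeR adjusted p = 9.79e-10) and to 9.32 ± 1.60 with siYES1, against 27.5 ± 2.77 with siNS, in SUM159PT (-1.56, edgeR adjusted p = 5.4e-06, or -1.64 without siNS replicate 1). GM2A, the activator of ganglioside breakdown, fell by 1.19 and MANBA, a mannosidase, fell by 1.06 in MDA-MB-231 (edgeR adjusted p = 1.56e-08 and 1.07e-07). In SUM159PT SLC17A5, the sialic acid exporter, rose by 0.95 and ACP2, an acid phosphatase, fell by 1.20 (edgeR adjusted p = 2.36e-05 and 0.00360). Without siNS replicate 1 SLC17A5 was at 0.84 and ACP2 at -0.90.

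Of 12 other V-ATPase subunits, 5 were called higher and 1 lower in each line (median 0.12 in MDA-MB-231 and 0.20 in SUM159PT), counts that were the same in SUM159PT without siNS replicate 1. ATP6V0B, of the membrane ring, rose by 0.67 in MDA-MB-231 and 0.56 in SUM159PT (edgeR adjusted p = 0.000148 and 0.000157), the second being 0.58 without siNS replicate 1. ATP6V0E1 rose by 0.40 in MDA-MB-231 and 0.68 in SUM159PT (edgeR adjusted p = 0.000524 and 0.000126), the second being 0.65 without it. ATP6V0C, also of the membrane ring, rose by 0.86 in MDA-MB-231 (edgeR adjusted p = 0.0170), at 8.99 ± 1.39 CPM with siYES1 and 4.98 ± 3.00 with siNS. ATP6V1E1, of the stalk, rose by 0.50 in SUM159PT (edgeR adjusted p = 0.000575), or 0.44 without it.

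Of 34 other autophagy factors tested in MDA-MB-231, 4 were called higher and 12 lower (median -0.09), and of 33 tested in SUM159PT 7 were called higher and 4 lower (median 0.12), or 9 and 6 without siNS replicate 1. In MDA-MB-231 ATG3, the E2-like enzyme for ATG8 proteins, rose by 0.65 and ATG12 by 0.57, while TECPR1 fell by 0.77 (edgeR adjusted p = 6.32e-05, 7.96e-05 and 3.98e-05). In SUM159PT EPG5 and PLEKHM1, which act in fusion with the lysosome, rose by 1.20 and 1.21 (edgeR adjusted p = 3.22e-06 and 6.31e-05), or 1.09 and 1.03 without siNS replicate 1. EPG5 had 201 ± 9.53 CPM with siYES1 and 87.7 ± 13.8 with siNS there. ATG10, the E2-like enzyme for ATG12, fell by 0.95 in SUM159PT (edgeR adjusted p = 0.00592), or by 0.78 without it.

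Of 23 tested genes that control TFEB or mTORC1 at the lysosome, 5 were called higher and 8 lower in MDA-MB-231 (median -0.09), and 7 higher and 2 lower in SUM159PT (median 0.18), or 10 and 2 there without siNS replicate 1. RPTOR, the defining subunit of mTORC1, fell by 0.56 in MDA-MB-231, and TSC2, which inhibits mTORC1, fell by 0.64 (edgeR adjusted p = 1.36e-05 and 1.29e-06). FNIP2, a partner of folliculin, fell by 0.57 in MDA-MB-231 (edgeR adjusted p = 0.000442). In SUM159PT FLCN, folliculin itself, rose by 0.82 and the Rag GTPase gene RRAGC by 0.73, while RRAGB fell by 0.84 (edgeR adjusted p = 0.00134, 0.00858 and 0.00676). Without siNS replicate 1 these were 0.71, 0.59 and -0.68. Between lines, 16 of 40 other lysosomal genes, 3 of 12 pump subunits, 12 of 34 autophagy factors and 9 of 23 control genes were called more positive in SUM159PT by the interaction test, and 1 lysosomal gene and 1 autophagy factor more negative. Without SUM159PT siNS replicate 1 the more positive numbered 16 of 41, 1 of 12, 13 of 34 and 8 of 23, with the same numbers more negative.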

How the data were processed

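Poly-T selected RNA of 16 libraries was measured. Per the submitters' processing notes, HISAT2 2.0.5 and featureCounts 1.5.0-p3 were used with build hg38. The authors deposited raw counts per gene, 1 table for each line. No source used here gives the annotation or strand setting of the counting, which leaves overlapping, antisense and near-identical genes uncertain. All 58735 gene IDs matched GENCODE 29, as did the 44 members and 112 other pathway genes. The members, their classes, the other lists and the tests were chosen with earlier results of these data known.

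Each line was fitted on its 8 libraries with TMM scaling, filterByExpr and the quasi-likelihood F test of edgeR 4.0.16 (R 4.3.3), with Benjamini-Hochberg adjustment over all genes tested. The difference between lines was the interaction over 16 libraries. The alternatives were RLE and total-count scaling, scaling within a line, DESeq2 1.42.0, limma-voom (limma 3.58.1), no filter or one at 1 CPM on average, a replicate block, a joint fit and leaving out each library. Between libraries of a group chi-squared per degree of freedom was 2.21 to 49.6, so none was a duplicate. MDA-MB-231 had a common biological coefficient of variation of 0.0988, and SUM159PT 0.165. The fit was tested on simulated counts.

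Any member may be named. Values in every library are given for 8 key genes, for the 6 called members with the largest change per comparison at 5 CPM or more, and, chosen after their values were seen, for ATP6V1A, ATP6V1B2, ATP6AP1, GUSB and PSAP. Of other lists up to 3 called genes per line at 5 CPM or more are named. Promoter sequences are from RefSeq.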

Additional observations from a re-analysis of the deposited data

Results flagged for a closer look

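Of 56 groups of 4 libraries checked over 14 genes, 2 held a library whose gap to its nearest neighbour took most of the group's range, a pattern that chance gives in about 1 of 20 groups. LAMP1 was 439 CPM in MDA-MB-231 siYES1 replicate 2, and 421 to 424 in the others of that group. CTSB was 535 CPM in MDA-MB-231 siNS replicate 1, and 564 to 569 in the others. Both gaps are small beside the distance between siYES1 and siNS.

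The siYES1 effect differed between lines in edgeR's interaction test for 23 members. On the log2 scale, SUM159PT minus MDA-MB-231, the difference was 2.63 for WIPI1, 1.22 for CTSB, 1.11 for TFE3, 0.97 for OPTN, 0.94 for ULK1, 0.82 for SQSTM1, 0.80 for TFEB, 0.78 for NBR1, 0.70 for ATP6V1B2 and 0.70 for NEU1. It was 0.63 for TAX1BP1, 0.62 for CTSL, 0.58 for PSAP, 0.53 for LAMP1, 0.46 for MAP1LC3B, 0.46 for GABARAPL2, 0.45 for LAMP2, 0.42 for CD63, 0.41 for BECN1, 0.38 for CTSA, 0.35 for WIPI2, 0.32 for ATP6V1A and -0.34 for GUSB.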

How the results depend on the processing

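No called value changed sign under any alternative that was run. Of the called members, 17 of 25 in MDA-MB-231, 18 of 26 in SUM159PT and 13 of 23 for the difference between lines were called under every alternative. With total counts as the scaling, autophagy factors called higher numbered 1 in MDA-MB-231 and 4 in SUM159PT, with 1 lower in SUM159PT. For the difference total counts gave 13 members higher and 3 lower, of which 5 higher and 3 lower were lysosomal and 6 higher were autophagy factors. Total counts moved the median of all genes by -0.17 in SUM159PT and by -0.22 for the difference. Their share of calls higher was 25% in SUM159PT, against 48.2% with TMM. With no filter on low counts, 1 autophagy factor was higher in MDA-MB-231, and 0 members, so 0 lysosomal proteins, were lower for the difference. The joint fit gave 1 autophagy factor higher in MDA-MB-231, and of its calls over all genes there 37.8% were higher, against 47.6%. Scaling within each line gave 2 lower for the difference, both lysosomal, 6 autophagy factors higher, and 49.0% of all calls higher, against 63.5%. RLE scaling gave 55.1% and DESeq2 53.7% there. The cause was not tested.

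With a replicate block, 3 lysosomal proteins were lower and 1 autophagy factor higher in MDA-MB-231, and 0 members (0 lysosomal) were lower for the difference. The numbers share no stated batch. Deviations of same-numbered libraries correlated between -0.123 and 0.088, and those of differently numbered libraries between -0.224 and 0.213. The main fits leave the numbers unpaired, but with 4 libraries per group this check cannot exclude pairing. Leaving out 1 library gave, in MDA-MB-231, 11 to 14 members higher and 9 to 13 lower, 10 to 12 lysosomal proteins higher and 3 to 6 lower, and 1 to 2 autophagy factors higher and 5 lower. In SUM159PT it gave 17 to 25 higher and 4 to 5 lower, 11 to 15 lysosomal higher and 3 to 4 lower, and 5 to 10 autophagy higher and 0 lower. For the difference it gave 19 to 23 higher and 0 to 3 lower, 9 to 11 lysosomal higher and 0 to 3 lower, and 8 to 10 autophagy higher and 0 lower. Counts of a few reads limit CTSK, whose interval for the difference, -0.92 to 1.16, holds most effects described.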
